A study of Mus musculus with 6 samples.

Results

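The urea cycle was examined in liver RNA from LKB1 knockout (KO) and wild type (WT) mice through 7 of the 55450 genes in the deposited table, chosen by symbol. They are the 6 cycle genes Nags, Cps1, Otc, Ass1, Asl and Arg1, and Gm5424, a processed pseudogene of Ass1, which is given alone and summed with Ass1. All 7 had counts in all 6 libraries and passed the low-count filter. Mice labelled C57BL/J, either wild type or carrying the LKB1 fl/fl alleles (gene symbol Stk11), received AAV8 Cre at 6 weeks of age, and the left liver lobe was taken 4 weeks later, at 10 weeks, from 3 mice in each group. Both groups therefore carried the virus and Cre, and the floxed alleles are what the labels give as the difference. The promoter that drives Cre and the sex of the mice are not given in the labels, and the lobe was sequenced whole, so cells that the virus did not reach are included. Each library is 1 mouse, with 47659122 to 56147667 counts.

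The urea cycle turns the ammonia released by amino acid breakdown into urea, and in mammals the complete cycle runs mainly in hepatocytes around the portal vein. Its first steps take place in mitochondria, where NAGS makes the N-acetylglutamate that carbamoyl phosphate synthetase 1 (Cps1) needs for activity and where ornithine transcarbamylase (Otc) makes citrulline. The remaining enzymes, encoded by Ass1, Asl and Arg1, work in the cytosol, and the ornithine they release is carried back into mitochondria. LKB1 is a kinase that activates AMPK and related kinases, and some of these restrain transcriptional coactivators of the fasting response in liver.

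The labels were first checked by Stk11, which had 22.1, 14.4 and 11.4 CPM (counts scaled to a common library size by TMM) in KO libraries 1, 2 and 3 and 66.1, 64.2 and 69.7 CPM in WT libraries 1, 2 and 3. The KO library with the most Stk11 left was thus KO 1. KO 1 and WT 1 had 42472 and 29243 Xist counts and at most 6 counts of 4 Y-linked genes, whereas the other 4 libraries had 6146 to 8199 Y-linked counts and at most 16 Xist counts. Values are therefore also given within the first pair (the Xist pair), 1 library against 1 with no replicate check, and in the other 4 (the Y-linked libraries). Hepatocyte markers (Alb, Apoa1, Ttr, Trf, Apob, Serpina1a) were abundant in all libraries, but their summed level was 25080 to 79350 CPM in KO and 95490 to 137700 CPM in WT. Of these 6 markers, Alb was at 57064 to 95626 CPM in WT and 10394 to 50550 CPM in KO. Alb, Apoa1, Ttr, Trf and Apob had lower group means in KO, while Serpina1a had 4008 CPM in KO and 3937 CPM in WT. Of the 6, 0 were called. Of 4 kidney tubule markers, Umod and Kap were at 0 counts in every library, Slc34a1 had at most 3 counts and Lrp2 had 10 to 76. Neutrophil and lymphocyte marker sums were at most 2.29 CPM. Periportal hepatocyte markers (Gls2, Hal, Sds, Cyp2f2, Hsd17b13, Pck1, Etnppl, Cdh1) summed to 7390 to 12500 CPM in KO and 4625 to 4756 CPM in WT, with 3 of 8 called as higher. They did not move as one, since Cyp2f2 had group means of 314 CPM in KO and 1057 CPM in WT with no overlap, and Cdh1 had 44.8 and 65.3 CPM, neither of them called. The 10 pericentral markers summed to 4567 to 7307 CPM in KO and 8283 to 9578 CPM in WT, with Oat called as higher and Cyp1a2 as lower. Without Oat the other 9 summed to 3475, 998 and 1662 CPM in KO libraries 1 to 3 and 9040, 8820 and 7801 CPM in WT libraries 1 to 3. Cyp2e1 was the largest part of this sum, with group means of 1183 CPM in KO and 6273 CPM in WT. Of the 9, only Rhbg had a higher mean in KO (9.71 against 6.59 CPM in WT), and only Cyp1a2 was called. Oat and Gls2 also stand in the nitrogen lists described here, and Gls2 was kept in the periportal sum. Marker sums of Kupffer cells were 90.5 to 191 CPM in KO and 118 to 160 CPM in WT, and those of endothelial cells 75.5 to 129 CPM in KO and 156 to 214 CPM in WT. In whole tissue, fewer cells of a type and less RNA per cell cannot be told apart, and the part of these markers in the results below was not tested.

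Of the 7 genes, 4 rose in KO past the threshold (Benjamini-Hochberg adjusted p under 0.05, quasi-likelihood test of edgeR), namely Ass1, Gm5424, Asl and Nags, and 6 were higher at an unadjusted p under 0.05, as were 14.6% of all genes tested. None of the 7 fell past the threshold in edgeR, DESeq2 or limma voom. Over all 14539 genes tested, 2.15% were called as higher in KO and 1.22% as lower. Cps1 and Arg1 were higher in every KO library than in any WT library but did not pass the threshold, and Otc was the one member whose groups overlapped. Groups that did not overlap and were higher in KO were found for 16.9% of all genes tested, against 6 of the 7 members. The median log2 fold change of the 7 genes was 1.87, the value of the Gm5424 row, against 0.01 over all genes tested. Ass1 and Gm5424 share reads, so the 7 rows are not 7 separate observations. With the 2 rows summed, 3 of 6 rows were called. Together the 7 genes made up 1.86%, 2.38% and 3.31% of all counts in KO libraries 1 to 3 and 0.815%, 0.812% and 0.750% in WT libraries 1 to 3.

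**Figure D1:**
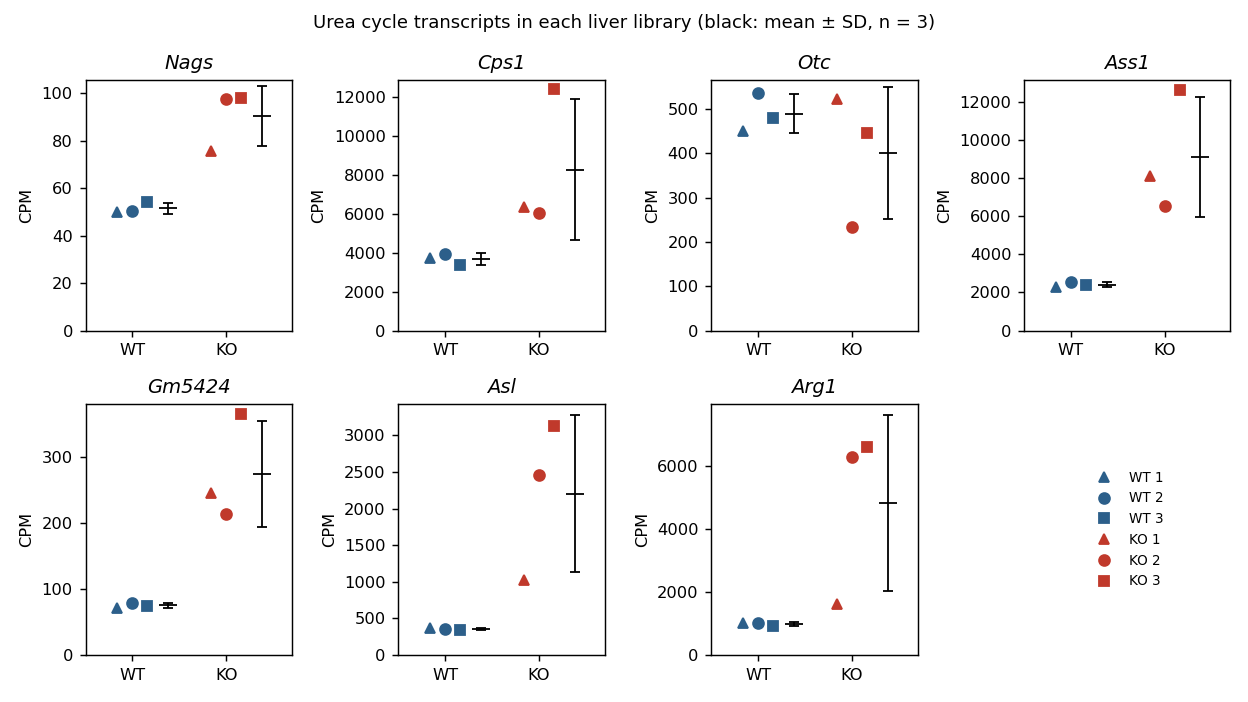
Normalised level (CPM, linear axes that start at 0) of each gene in the 3 WT and 3 KO libraries, with the mean and SD of each group beside the points. The WT libraries lie close together in every panel, the KO libraries lie above them in 6 panels, and the Otc panel is the one in which the groups overlap.

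Nags encodes the enzyme that makes the activator of Cps1. Its level was 75.7, 97.6 and 97.9 CPM in KO libraries 1 to 3 and 50.1, 50.4 and 54.2 CPM in WT libraries 1 to 3. Every KO library lay above every WT library, and KO 1 was the lowest of the 3. The mean was 90.4 ± 12.7 CPM in KO and 51.6 ± 2.30 CPM in WT (SD, n = 3 each), a rise of 0.81 ± 0.142 on the log2 scale (SE; edgeR adjusted p = 0.0383). Nags was the smallest of the 4 called rises. The gene (ENSMUSG00000048217.11, GRCm38 chromosome 11, 102145513 to 102149477, plus strand) overlaps the annotated antisense gene Gm11586. The use of strand in counting is not stated, but the Gm11586 row held at most 0.934 CPM.

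Cps1 encodes the enzyme that joins ammonia and bicarbonate into carbamoyl phosphate, the entry step of the cycle. Its level was 6332, 6042 and 12440 CPM in KO libraries 1 to 3 and 3735, 3960 and 3361 CPM in WT libraries 1 to 3. The groups did not overlap, but KO 3 stood at about the sum of the other KO libraries, and the KO spread was wide (8271 ± 3613 against 3685 ± 303 CPM, SD, n = 3 each). This was a log2 fold change of 1.17 ± 0.347 (SE; edgeR adjusted p = 0.0984), which missed the threshold. Without KO 3 it was 0.75, and without KO 1 it was 1.32 and passed (edgeR adjusted p = 0.0316). The gene (ENSMUSG00000025991.8) lies on chromosome 1, 67123026 to 67231259, plus strand.

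Otc encodes the enzyme that joins carbamoyl phosphate to ornithine, and it is the X-linked gene of the cycle (ENSMUSG00000031173.13, chromosome X, 10252305 to 10321024, plus strand). Its level was 523, 234 and 446 CPM in KO libraries 1 to 3 and 450, 537 and 481 CPM in WT libraries 1 to 3. KO 2 was the lowest of all 6 libraries, and KO 1 lay within the WT range. The mean was 401 ± 150 CPM in KO and 489 ± 44.1 CPM in WT (SD, n = 3 each), and the log2 fold change, -0.29 ± 0.302 (SE), was smaller than its error (edgeR adjusted p = 0.573). Among the Y-linked libraries both KO values lay below both WT values, a log2 difference of -0.65, and the Xist pair differed by 0.22. The difference between these subsets was not called by an edgeR interaction test (adjusted p = 0.455).

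Ass1 encodes the enzyme that condenses citrulline with aspartate. Its row was at 8122, 6545 and 12627 CPM in KO libraries 1 to 3 and 2299, 2528 and 2412 CPM in WT libraries 1 to 3. The groups were far apart, with the lowest KO library, KO 2, at more than double the highest WT library. On the log2 scale Ass1 rose by 1.91 ± 0.313 (SE; edgeR adjusted p = 0.0325). The log2 difference was nearly the same in both subsets, 1.88 for the Y-linked libraries and 1.82 for the Xist pair. The gene (ENSMUSG00000076441.9) spans chromosome 2, 31470207 to 31520672, plus strand, and its coding transcript has 16 exons.

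Gm5424 (ENSMUSG00000046687.6, chromosome 10, 62071123 to 62072362, plus strand) is a single-exon copy of the Ass1 coding sequence, and reads from one can be placed on the other. In GENCODE M21 its 1240 nt align without a gap to the coding transcript Ass1-201 from the start codon onward, with 99.52% identity. Counted from the A of the start codon, with the Ass1 base first and the Gm5424 base last, the 6 differences are T399C, T429C, A520T, G656C, T1011C and C1143T. The reading frame is open for 412 codons in both. The 3 stretches below hold 4 of the 6 differences, shown in capitals. They are printed because, for a read taken alone within the copied stretch, only the differing letters can tell the rows apart.
Ass1 coding bases 389 to 439: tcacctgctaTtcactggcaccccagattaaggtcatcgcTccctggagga
Gm5424 bases 389 to 439: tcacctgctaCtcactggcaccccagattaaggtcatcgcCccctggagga
Ass1 coding bases 510 to 530: catccctgtcAcccccaagag
Gm5424 bases 510 to 530: catccctgtcTcccccaagag
Ass1 coding bases 646 to 666: gcacccaacaGcccagatgtc
Gm5424 bases 646 to 666: gcacccaacaCcccagatgtc

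The first 398 bases of the 2 sequences are identical, the longest stretch with no difference. Of the 1165 windows of 76 nt (the read length) in Gm5424, 755, or 64.8%, occur letter for letter in Ass1-201. The other 410 windows cover at least 1 of the differing letters. These are windows of single reads, and the libraries were sequenced in pairs, so the mate of a read can also tell the rows apart. Of the 1621 windows of 76 nt in Ass1-201, which is longer than the copy, 46.6% occur in Gm5424. The rest cover a differing letter or sequence outside the copied stretch.

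The division of reads is visible in the deposited values. RSEM gives expected counts, which need not be whole where a read fits several genes. The rows of Nags, Cps1, Otc, Asl and Arg1 were whole in all 6 libraries, whereas those of Ass1 and Gm5424 were not whole in any. In KO 1 they were 473430.51 and 14286.49, and their sum was 487717. The sum was a whole number in all 6 libraries, to the 2 decimals of the table.

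The Gm5424 row was 245, 213 and 365 CPM in KO libraries 1 to 3 and 71.8, 79.3 and 74.7 CPM in WT libraries 1 to 3. Its libraries stood in the same order as those of Ass1 within each group, with KO 3 highest and KO 2 lowest. On the log2 scale the row rose by 1.87 ± 0.228 (SE; edgeR adjusted p = 0.0172). The row held 2.97% ± 0.172 of the summed counts of both rows in KO and 3.03% ± 0.0185 in WT (SD, n = 3 each), so its share differed by less than the spread among the KO libraries. Because the rows share reads, Gm5424 is not a second observation beside Ass1, and whether the pseudogene is itself transcribed was not tested.

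With both rows added, the level was 8367, 6758 and 12993 CPM in KO libraries 1 to 3 and 2371, 2607 and 2487 CPM in WT libraries 1 to 3. Refitting the whole table with this row in place of the 2 gave a rise of 1.91 ± 0.313 on the log2 scale (SE; edgeR adjusted p = 0.0327). In that fit 2.15% of 14538 genes were called as higher. The fold change of Ass1 thus did not rest on how reads were divided between these 2 rows. Counted over distinct transcripts, 3 of 6 rows were called, the sum, Asl and Nags.

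**Figure D2:**
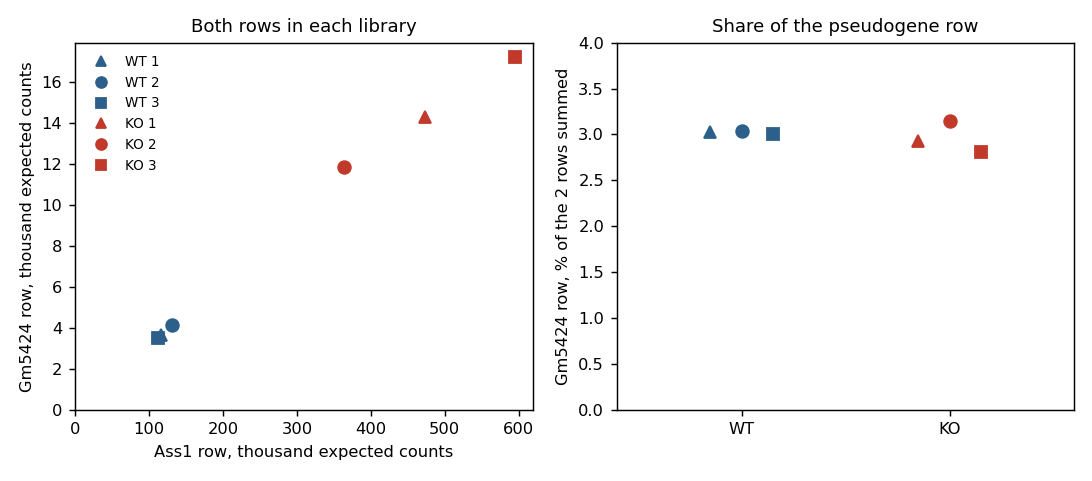
Left, expected counts of the Gm5424 row against the Ass1 row in each library (axes in units of 1000 counts, linear from 0). Right, the Gm5424 row as a percent of both rows summed, which lies between 2.81% and 3.15% in all 6 libraries although the counts themselves differ several-fold between WT (blue) and KO (red).

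Asl encodes the enzyme that splits argininosuccinate into arginine and fumarate. Its level was 1025, 2463 and 3127 CPM in KO libraries 1 to 3 and 363, 359 and 338 CPM in WT libraries 1 to 3. The WT libraries were nearly level, and KO 1 was well under the other 2 KO libraries. Asl showed the largest fold change of the 7 genes, a rise of 2.64 ± 0.413 on the log2 scale (SE; edgeR adjusted p = 0.0303). The log2 difference was 3.00 for the Y-linked libraries and 1.50 for the Xist pair. The gene (ENSMUSG00000025533.15) lies on chromosome 5, 130011258 to 130029247, minus strand.

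Arg1 encodes liver arginase, which releases urea from arginine. Its level was 1610, 6306 and 6602 CPM in KO libraries 1 to 3 and 1015, 1013 and 920 CPM in WT libraries 1 to 3. KO 2 and KO 3 lay together at more than 6 times the WT level, and KO 1 lay above every WT library but well under the other KO libraries. Over the 6 libraries the log2 fold change of 2.30 ± 0.522 missed the threshold (SE; edgeR adjusted p = 0.0618). Fitted alone, the Y-linked libraries gave 2.73 (edgeR adjusted p = 0.00163), and 5 of the 7 members were called there, Arg1 among them, where 17.2% of all genes tested were called as higher. The Xist pair differed by 0.67. The gene (ENSMUSG00000019987.9) lies on chromosome 10, 24915221 to 24927484, minus strand.

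The KO libraries thus differed in which steps stood highest over WT. KO 1 was at 1.72 times the WT mean for Cps1, 3.37 for Ass1, 2.90 for Asl and 1.64 for Arg1. KO 2 was at 1.64 times for Cps1 and 2.71 for Ass1 but at 6.98 for Asl and 6.42 for Arg1. KO 3 was high for all 4, at 3.38, 5.23, 8.86 and 6.72 times. Cps1 and Ass1 were therefore lowest in KO 2, and Asl, Arg1 and Nags lowest in KO 1. KO 1 is also the KO library with Xist counts and with the most Stk11, and the part of either in this order was not tested.

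Whether the KO minus WT difference itself varied between the subsets was examined with an edgeR interaction term. The Xist pair is 1 library against 1, so the 2 residual degrees of freedom of this fit come from the other 4 libraries. The pair is assumed to vary like them. In addition, edgeR draws the variance of each gene toward that of all genes, so the errors and p-values rest partly on other genes. KO 1 is also the KO library with the most Stk11, and Xist state cannot be told apart from KO 1 and WT 1 as single mice. By this test 0 of the 7 genes were called, against 2.9% of all genes tested. At an unadjusted p under 0.05 there were 2 members, and the share of all genes at that cut is not given. The 2 were Arg1, where the log2 difference was smaller in the Xist pair by 2.07 ± 0.388 (SE, adjusted p = 0.0606), and Asl, where it was smaller by 1.51 ± 0.369 (adjusted p = 0.109). Both passed the threshold when libraries were scaled by size alone and when no low-count filter was applied. The share of all genes called in those fits is not given either, so these calls have no background beside them. DESeq2 and limma voom were not run for this interaction.

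**Figure D3:**
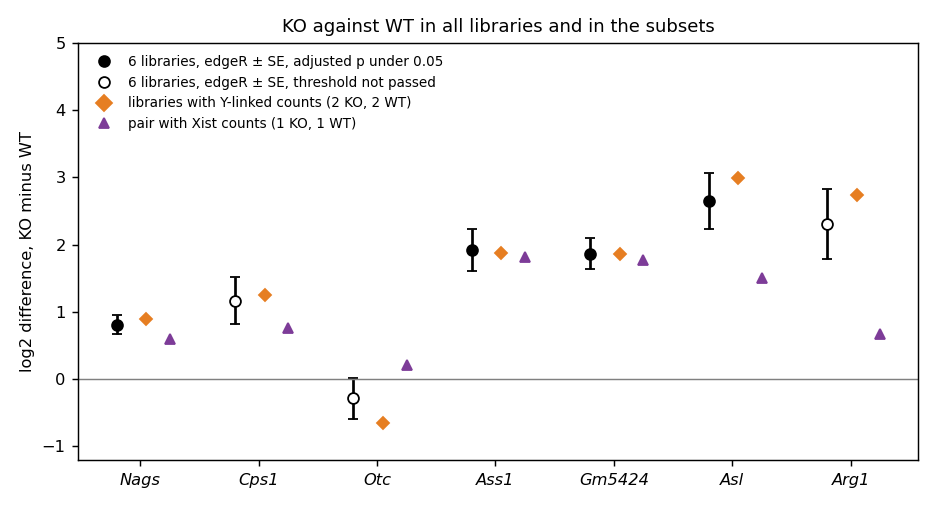
Log2 difference of KO minus WT for each gene over the 6 libraries (black, edgeR with SE, filled where called), for the Y-linked libraries (orange) and for the Xist pair (purple). Ass1 and Gm5424 have similar values in all 3, Asl and Arg1 are lower in the Xist pair, and Otc lies on both sides of 0.

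The calls depended on single libraries. Leaving out WT 2 or WT 3 left 0 of the 7 genes past the threshold in edgeR, and 0.0334% and 0.113% of all genes were then called as higher. Leaving out KO 2, KO 3 or WT 1 left Gm5424 alone, with 0.484%, 0.207% and 1.02% of all genes called as higher. Ass1 and Gm5424 summed did not pass in those refits (edgeR adjusted p = 0.0532, 0.1002 and 0.0875), so none of the 6 cycle genes was called there. Leaving out KO 1 called 6 of the 7, all but Otc, with 16% of all genes called as higher. In each of these 6 refits the same 6 genes, all but Otc, had an unadjusted p under 0.05 and were higher in KO. Over all genes tested, 16.3% to 43.5% had an unadjusted p under 0.05 in either direction in these refits. Among other scalings, tools and filters, 4 of the 7 were called after scaling by library size (2.61% of all genes called as higher) or by RLE size factors (2.05%), with limma voom (1.75%) and with the Xist state as a term (5.36%). The count was 5 without a low-count filter (2.04%) and 6 with DESeq2 (8.74%). Otc was called in none of these fits.

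Levels of different genes were compared per kilobase of the longest annotated transcript. In WT, Ass1 was the most abundant member at 1423 ± 67.6 CPM per kilobase (SD, n = 3). Arg1 and Cps1 followed at 665 ± 36.9 and 663 ± 54.5 and did not differ beyond their spread. Otc and Asl came next at 163 ± 14.7 and 146 ± 5.51, with libraries that overlapped, and Gm5424 and Nags were lowest at 60.7 ± 3.07 and 19.0 ± 0.847. In KO the order was Ass1 (5364 ± 1861), Arg1 (3276 ± 1896), Cps1 (1489 ± 650), Asl (914 ± 445), Gm5424 (221 ± 64.8), Otc (134 ± 49.95) and Nags (33.3 ± 4.68). The KO spreads of Ass1 and Arg1 overlapped, as did those of Arg1 and Cps1, of Cps1 and Asl, and of Gm5424 and Otc. On this length Asl was level with Otc in WT and above it in all 3 KO libraries. The choice of length moved some of these levels. With the union of exons, Cps1 stood above Arg1 in WT at 663 against 441 CPM per kilobase and Otc above Asl at 115 against 73.1, while the order of the means in KO was the same.

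**Figure D4:**
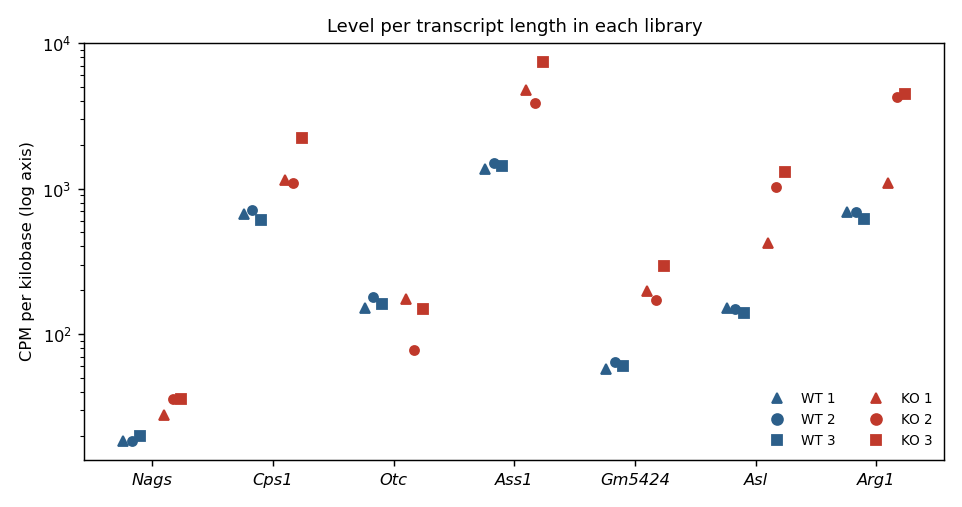
Level per kilobase of the longest annotated transcript (CPM per kilobase, log axis) in each WT (blue) and KO (red) library, in the order of the cycle. On this length Otc and Asl sit at about the same height in WT, and in KO the Asl points lie above all Otc points.

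The steps around the cycle were described by 4 lists with 50 genes, of which 46 were tested. In all 10 rose and 0 fell past the threshold in edgeR, against 2.15% and 1.22% of all genes tested, and 24 had an unadjusted p under 0.05 in either direction, against 26.3%. DESeq2 called 15 as higher and 5 as lower (8.74% and 7.01% of all genes), and limma voom 10 and 0 (1.75% and 1.22%). The median log2 fold changes of the lists are given beside the 0.01 of all genes tested. Among carriers and transporters (9 tested, median 1.08) 2 rose. Slc25a15, the mitochondrial ornithine and citrulline carrier, went from 360 ± 23.3 CPM in WT to 1113 ± 241 CPM in KO (SD, n = 3; adjusted p = 0.0215 in edgeR). Slc7a2, a cationic amino acid transporter, went from 442 ± 53.6 to 1967 ± 481 CPM (adjusted p = 0.0147 in edgeR). Slc25a13, the mitochondrial aspartate and glutamate carrier, had 225 ± 29.6 CPM in WT and 233 ± 46.5 CPM in KO, a log2 fold change of 0.05 ± 0.199 (SE) with no call.

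Among the 11 genes that supply ammonia, bicarbonate or aspartate, or handle the fumarate that Asl releases, 5 rose and the median was 1.32. Gls2, the liver glutaminase, was at 1133, 1374 and 1830 CPM in KO libraries 1 to 3 and 364, 314 and 317 CPM in WT libraries 1 to 3, with no overlap. Got1, the cytosolic aspartate aminotransferase, rose by 3.19 ± 0.431 (SE) on the log2 scale, the most of this list. Fh1 (fumarase), Gpt2 (mitochondrial alanine aminotransferase) and Mdh2 (mitochondrial malate dehydrogenase) rose by 2.37, 1.71 and 1.68, at edgeR adjusted p of 0.0115, 0.0331 and 0.0481. Glud1, glutamate dehydrogenase, had a log2 fold change of -0.37 ± 0.215 (SE) and was not called (adjusted p = 0.318 in edgeR).

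Among other users of ornithine, arginine, glutamate and ammonia (12 listed, 9 tested, median -0.86) 1 rose. Oat, ornithine aminotransferase, was at 3832, 3568 and 4983 CPM in KO libraries 1 to 3 and 538, 537 and 482 CPM in WT libraries 1 to 3, a rise of 2.99 ± 0.236 on the log2 scale (SE; edgeR adjusted p = 0.0047). Glul, glutamine synthetase, which binds ammonia near the central vein, was at 476, 30.2 and 76.6 CPM in KO and 1090, 926 and 949 CPM in WT and was not called over the 6 libraries (adjusted p = 0.17 in edgeR), though it was in the Y-linked libraries alone (log2 fold change -4.14, edgeR adjusted p = 0.00341). Arg2, the second arginase gene, was at 0.216 CPM or less in every library and was not tested.

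Among 17 regulators (median 0.12) 2 rose. Sirt5, a mitochondrial deacylase known to act on CPS1 protein, was at 29.6, 36.4 and 32.6 CPM in KO libraries 1 to 3 and 9.82, 12.4 and 12.6 CPM in WT libraries 1 to 3, with no overlap. Its rise on the log2 scale was 1.50 ± 0.149 (SE; edgeR adjusted p = 0.00942), with 1.46 for the Y-linked libraries and 1.58 for the Xist pair. Ppargc1a, a coactivator of fasting genes, was at 24.7, 75.2 and 76.4 CPM in KO and 12.3, 5.75 and 4.28 CPM in WT and rose by 2.98 ± 0.565 (SE, adjusted p = 0.0446 in edgeR). Over these lists the count ran from 0 without WT 2 or without WT 3 to 30 without KO 1. These 30 were 20 higher and 10 lower, in a fit that called 16% of all genes as higher and 14.2% as lower. In the 6 refits 18 to 34 list genes had an unadjusted p under 0.05, as had 16.3% to 43.5% of all genes.

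**Figure D5:**
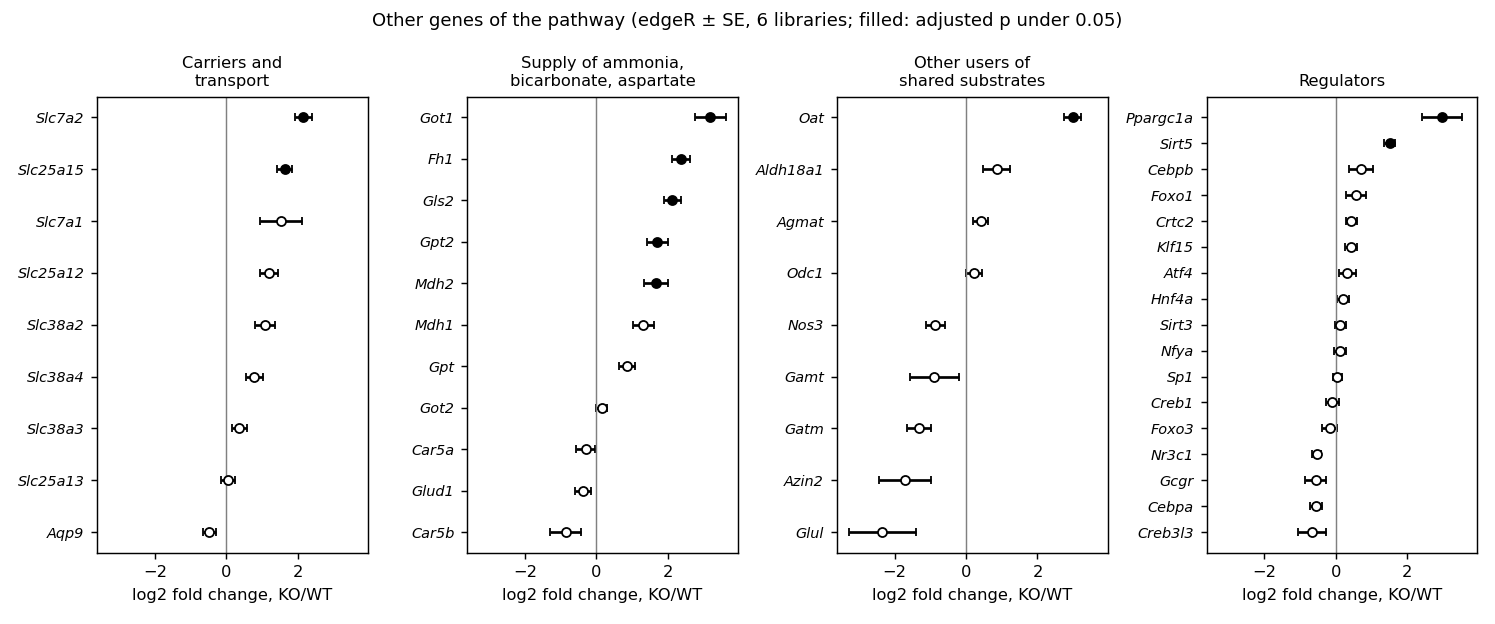
Log2 fold change of KO over WT with its SE for the 46 tested genes of the 4 lists, ordered by value within each list, with filled points where the adjusted p-value was under 0.05. The 10 filled points all lie to the right of 0, and the points left of 0, such as Glul, are open.

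Patterns over the 6 libraries were also compared, as a description only. The mean centred log2 CPM profile of the 6 enzymes was most like those of Mrpl42, Atp5e, Phb2, Fubp3 and Sgta, with Pearson r from 0.9973 to 0.9988 over 6 libraries. The profile of Ass1 and Gm5424 summed was most like those of Slc25a48, Xrcc6, Hgd, Uvssa and Selenbp1, with r from 0.9901 to 0.997. Because the libraries fall into 2 groups and share their scaling, a high r is common, and 423 and 163 of 7497 genes with a mean of at least 10 CPM had r over 0.95 with these profiles. Hgd, the homogentisate dioxygenase of tyrosine breakdown, went from 518 to 1937 CPM in the group means.

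Promoter sequences were held in the RefSeq table (GRCm38.p6) for 3 of the 7 genes, Otc, Ass1 and Nags. The upstream sequences of Nags, which rose, and Otc, which did not, are shown as examples. They run 5′ to 3′ up to the base before the annotated start, with the motif GGGCGG or its reverse complement in capitals. Ass1, which also rose, is not printed, and its window is described below.
Nags chr11:102145263-102145512, plus strand: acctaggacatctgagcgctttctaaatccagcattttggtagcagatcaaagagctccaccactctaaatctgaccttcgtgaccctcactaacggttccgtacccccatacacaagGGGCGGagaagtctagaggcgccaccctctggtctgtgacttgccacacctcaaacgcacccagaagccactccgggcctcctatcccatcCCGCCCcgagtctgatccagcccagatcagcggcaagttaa
Otc chrX:10252055-10252304, plus strand: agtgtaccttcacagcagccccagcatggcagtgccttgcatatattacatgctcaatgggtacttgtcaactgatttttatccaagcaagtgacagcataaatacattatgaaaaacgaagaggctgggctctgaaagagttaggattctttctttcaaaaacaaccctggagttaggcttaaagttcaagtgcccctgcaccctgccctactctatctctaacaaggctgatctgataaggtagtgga

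The 300-base windows from 250 before to 50 after the start were searched on both strands for the cAMP response element TGACGTCA, its shorter form TGACG (present wherever the full element is), the box CCAAT, the TATA-type motif TATAAA, the Sp1-type motif GGGCGG and the C/EBP-type motif TTGCNNAA. The Nags window held GGGCGG at 2 places and TGACG at 1, the latter on the minus strand 31 bases after the start. The Ass1 window held GGGCGG at 1 place, at -63 to -58 from the RefSeq start. That place lies past the GENCODE M21 start of Ass1, and the 187 bases of the window before the GENCODE start held none of the motifs. The Otc window held none of the 6 motifs. GGGCGG is present in 35.7% of the 32851 promoters of the table and TGACG in 20.8%, so both are common, and the motif TGACGTCA, found in 1.79%, was in none of the 3 windows. These matches are letters in a window and not shown to be bound sites.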

How the data were processed

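Poly(A) RNA from about 20 mg of frozen liver per mouse (RIN above 8, 200 ng input) was sequenced in paired 76 nt reads, as the labels' protocols say. Expected counts, estimated reads per gene that need not be whole, were deposited by the authors in 1 table with 1 column per library and 0 columns without a sample. The submitters' processing notes name bcl2fastq 2.17, cutadapt 1.18, STAR 2.7.0f, RSEM 1.3.1 and the build mm9, without roles. All 55450 versioned identifiers are in GENCODE M21 (GRCm38), which gave the positions, lengths and transcripts here, and no position was converted. Strand use is not given in the sources used here.

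Groups and replicate numbers come from the sample titles. Expected counts were rounded, filtered by filterByExpr (14539 genes kept), scaled by TMM and tested with edgeR 4.0.16 (glmQLFit, glmQLFTest, group as the term) in R 4.3.3, with Benjamini-Hochberg adjustment over all genes tested and a threshold of 0.05. The SE is the log2 fold change divided by the root of F. Differences within subsets are means of log2(CPM + 0.1), and profiles use a prior count of 2. Alternatives were library size or RLE scaling, no filter, DESeq2 1.42.0, limma 3.58.1 (voom), leaving out each library, a replicate block, the Xist state as a term, the 4 libraries with Y-linked counts, and Ass1 and Gm5424 summed. The scripts were tested on simulated data.

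The members, the pathway lists, the markers and the tests were chosen with earlier results of these data known. Named beside the members were Stk11, every list gene past the threshold, 8 list genes whatever their result (Slc25a15, Slc25a13, Arg2, Oat, Glul, Gls2, Glud1, Ppargc1a), the 5 genes nearest each profile, and overlapping genes. Alb, Serpina1a, Cyp2e1 and Rhbg were named after their values were seen.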

Additional observations from a re-analysis of the deposited data

Results flagged for a closer look

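For Ppargc1a the log2 difference of KO minus WT was smaller in the Xist pair than in the Y-linked libraries, with an interaction term of -2.91 ± 0.267 (SE, adjusted p = 0.0103 in edgeR), at 1.00 in the pair and 3.91 in the Y-linked libraries. The pair is 1 library against 1, so its own spread is not measured. The error rests on the other 4 libraries and on variance that edgeR borrows from all genes. In KO libraries 1 to 3 Ppargc1a was at 24.7, 75.2 and 76.4 CPM, and in WT libraries 1 to 3 at 12.3, 5.75 and 4.28 CPM. KO 1 was thus the lowest KO library and WT 1 the highest WT library. The Xist state cannot be told apart from these single mice, and KO 1 also had the most Stk11 of the KO libraries. Of the 20 members and named list genes examined this way, 1 passed, Ppargc1a, against 2.9% of all genes tested.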

How the results depend on the processing

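Same-numbered KO and WT libraries had correlations of deviations from the group means of 0.178, 0.0443 and 0.0679, and not every library correlated best with its own number, so the title numbers were not taken as pairs. The replicate block by these numbers left 0 of the 7 members and 3 of the pathway list genes past the threshold in edgeR. The main fit called 4 and 10. The block fit called 0.543% of all genes as higher. At an unadjusted p under 0.05 it had 6 members, against 26.1% of all genes in either direction. With the block the summed Ass1 row had a log2 fold change of 1.86 (adjusted p = 0.086 in edgeR). Leaving out 1 library at a time moved the member count between 0 and 6, the list count between 0 and 30, and the summed row between 1.60 and 2.11, with the call lost in 5 of the 6 refits. The list count was 20 with DESeq2 and 16 with the Xist state as a term. These fits called 2290 and 1504 of all 14539 genes in either direction. In the Y-linked libraries the list count was 28 (19 higher and 9 lower), where 4847 of 14546 genes were called in either direction. The interaction with the Xist pair, 1 library against 1, called 0 members in the main fit. It called 2 with library size scaling and 2 without the filter, fits for which no share of all genes is given. Slc25a13, called in no fit, ran from -0.11 without KO 3 to 0.18 without KO 2 and changed sign also without WT 1 (-0.041) and within the Y-linked libraries (-0.029). The cause of these changes was not tested. Of 313 values of 21 single genes under these alternatives, 236 kept their direction and their side of the threshold. The call was lost in 66 and gained in 8, and the direction changed in 3. The 236 include values of genes that were called in no fit, such as Otc, and of Stk11. Scaling, filter, voom and the Xist term left the member count at 4 or 5, and DESeq2 gave 6. Every member had at least 2536 counts in each library, so counting error is small beside the spread among the 3 KO mice.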
